A study of Arabidopsis thaliana with 24 samples.

Results

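This account concerns the effect of the KNO3 supply on roots that grew in the presence of isoxaben, an inhibitor of cellulose synthesis. It compares 3 libraries from 60 mM KNO3 with isoxaben and 3 libraries from 6 mM KNO3 with isoxaben, 6 of the 24 libraries of the study, chosen by their labels, across the 20546 of 32833 listed genes with enough counts to test. All libraries are polyadenylated RNA from roots of Arabidopsis thaliana, accession Col-0. In the long-term groups the seedlings stood on their treatment medium throughout, with 2.5 nM isoxaben or mock, and roots were collected on day 6 after stratification. The shift groups grew on mesh at their KNO3 level and were placed on day 5 on fresh medium with isoxaben or mock, with collection on day 6 as well. The long-term mock groups and the shift isoxaben groups each had 60 and 6 mM KNO3, with 3 libraries a group. They are used here to ask where the effect under long-term isoxaben differed. All 24 libraries also entered the fit that estimates the spread. KNO3 brings nitrate and potassium together, and the labels name no other salt at matched strength, so a change cannot be assigned to either ion. A library holds whole roots of an unstated number of seedlings, and nothing in the labels says that replicates came from separate sowings, so p-values measure the spread between these samples.

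Nitrate is the main nitrogen source of many plants and also a signal. Roots take it up with transporters of the NRT2 and NPF families, reduce it through nitrite to ammonium, and build the ammonium into glutamine and asparagine. Isoxaben acts on the cellulose synthase complexes that make the primary wall, and roots treated with it swell and can deposit lignin. In older root zones the endodermis forms the Casparian strip and then suberin, and the xylem forms secondary walls.

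The 6 libraries held 19030872 to 19782117 counts. The 3 libraries at 60 mM KNO3 with isoxaben varied more among themselves than those at 6 mM: their rank correlations across genes were 0.988 to 0.994, against 0.996 to 0.997, and the chi-square per degree of freedom between their counts was 10.1 to 21.7, against 2.64 to 3.34. A principal component analysis of the 6 libraries put 62.3% of the variance on a first axis that separated the KNO3 levels, and 17.0% on an axis along which replicates 1 and 2 at 60 mM lay at opposite ends. The root markers SHR, SCR, WOX5, PLT1 and PYK10 were present and did not pass the test, with log2 fold changes from -0.11 to 0.14, and PLT2 rose by 0.44, a call lost without replicate 2 at 6 mM. Markers of shoot tissue, 21 photosynthesis genes, summed to 229, 771 and 303 CPM (counts per 1e+06 counts of the effective library size) at 60 mM, against 481, 568 and 465 CPM at 6 mM. No gene of that list passed the test, and the median log2 fold change over it was -0.25. Without replicate 2 at 60 mM, 11 of the 21 passed as lower.

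At 60 against 6 mM KNO3 under long-term isoxaben, 5264 of 20546 tested genes were called (25.6%), 2569 higher (12.5%) and 2695 lower (13.1%). A gene was called when its p from edgeR's quasi-likelihood test, adjusted over all tested genes by Benjamini-Hochberg, was under 0.05. Where no other tool is named, adjusted p-values are from this fit. It pools the spread over 8 groups, although the 60 mM isoxaben libraries varied more than those at 6 mM. When only the 6 libraries compared were fitted, 4170 genes were called, 1920 higher and 2250 lower. The typical change was small: 1083 called genes (5.27%) changed at least 2-fold, 533 higher and 550 lower. The median absolute log2 fold change over all tested genes was 0.165. With the sign kept, so that rises and falls cancel, the median was 0.016. The values of the 2 groups did not overlap for 3961 tested genes that were higher and 3864 that were lower at 60 mM. This held for 5047 of the 5264 called genes, so a lack of overlap adds little to a call. In the other comparisons used below the called shares were 2.83% higher and 3.94% lower for KNO3 in long-term mock, 6.93% and 7.11% for KNO3 in shift isoxaben roots, 5.45% and 6.36% for the difference of the effect from that in mock, and 3.75% and 4.5% for the difference from that in shift isoxaben.

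The genes of nitrate reduction were lower at the higher nitrate supply. Of 12 genes in the list of nitrate reduction and its supply of reductant, 9 fell and none rose, with a median of -0.39. NIA1 (AT1G77760), which encodes a nitrate reductase, had 248, 470.0 and 482 CPM in 60 mM isoxaben roots, against 1228, 1244 and 1254 CPM in 6 mM isoxaben roots. The 6 mM values lay close together and all 60 mM values lay far below them (log2 change -1.63 with SE 0.18, adjusted p 1.35e-06). NIA2 (AT1G37130), the other nitrate reductase gene, had 543, 798 and 762 CPM, against 942, 927 and 1002 CPM (log2 change -0.45 with SE 0.11, adjusted p 0.00504). NIR1 (AT2G15620), the nitrite reductase gene, fell by 0.79, the ferredoxin-NADP reductase gene RFNR2 (AT1G30510) by 0.62, and UPM1 (AT5G40850), which makes a precursor of the siroheme cofactor of nitrite reductase, by 0.62 on the log2 scale. The call of RFNR2 was lost without replicate 1 at 60 mM (adjusted p 0.0659), and 5 of the 9 calls were left without replicate 2 of both KNO3 levels, the libraries with the highest photosynthesis marker sums; the part of these markers in the result was not tested. None of the 12 genes was called for KNO3 in long-term mock roots or in shift isoxaben roots. Tested directly, the KNO3 effect under long-term isoxaben was lower than that in mock for 5 of the 12 and lower than that in shift isoxaben for 6, NIA1 and NIR1 among both.

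Nitrate transporters split. Of 16 tested genes, 4 rose and 6 fell, and the median was -0.01. NPF7.2 (AT4G21680, NRT1.8 in RefSeq), which retrieves nitrate from the xylem, had 39.5, 89.3 and 66.3 CPM at 60 mM, against 6.67, 7.45 and 5.59 CPM at 6 mM (log2 change 3.30 with SE 0.24, adjusted p 1.24e-08). Its groups did not overlap, and its log2 fold change was 2.69 in mock and 3.55 in shift isoxaben roots, where it was called as well. NRT2.6 (AT3G45060), of the high-affinity family, had 5.16, 12.2 and 17.1 CPM, against 0.106, 0.317 and 0.269 CPM. With so few counts at 6 mM (the floor of 3 counts is up to 0.161 CPM there), how large the rise of NRT2.6 was cannot be given closely. NRT2.6 was called higher in mock and in shift isoxaben roots as well, with log2 fold changes of 3.25 and 5.96 beside 5.6 here. Neither difference was called. NPF6.2 (AT2G26690), a low-affinity transporter gene, rose by 1.69 (adjusted p 8.19e-10). Among the 6 that fell were 3 genes of uptake into the root. NPF6.3 (AT1G12110, NRT1.1 in RefSeq), the transporter that also senses nitrate, had 205, 364 and 351 CPM, against 621, 596 and 589 CPM (log2 change -0.97 with SE 0.20, adjusted p 0.00119). NRT2.1 (AT1G08090, NRT2:1 in RefSeq), the main high-affinity transporter, had 585, 1112 and 1336 CPM, against 1552, 2100 and 1855 CPM (log2 change -0.86 with SE 0.23, adjusted p 0.01004). NRT3.1 (AT5G50200, WR3 in RefSeq), its partner protein, fell by 0.79 (adjusted p 0.00121). For these 3 genes the effect differed from that in mock, where their log2 fold changes were -0.09, 0.16 and 0.12. NRT2.1 was not called when only the 6 libraries were fitted (adjusted p 0.128), nor without replicate 2 of both KNO3 levels, which had the highest photosynthesis marker sums (0.0555).

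The asparagine synthetase gene ASN1 rose while ammonium transporter genes fell. ASN1 (AT3G47340), which is usually induced by darkness and by sugar shortage, had 43.5, 66.8 and 73.8 CPM, against 3.49, 15.8 and 2.74 CPM (log2 change 3.06 with SE 0.57, adjusted p 0.000678). All 60 mM values were above all 6 mM values, though replicate 2 at 6 mM stood above the other 2. The ammonium transporter genes AMT1;1 (AT4G13510) and AMT1;3 (AT3G24300) fell by 0.75 and 0.80 on the log2 scale, both by more than in mock. AMT1;3 was not called when only the 6 libraries were fitted (adjusted p 0.0801). Among the 18 genes of ammonium uptake and amino acid assimilation, 4 rose and 5 fell, and 8 fell without replicate 2 at 60 mM. GLN1;4 (AT5G16570), a cytosolic glutamine synthetase gene, fell by 0.89, and GDH1 (AT5G18170), for glutamate dehydrogenase, by 0.54.

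Of 21 regulators of the nitrate response, 12 fell and 2 rose, and the rises numbered 1 in 5 of the 6 fits that left out a library. BT1 (AT5G63160) and BT2 (AT3G48360), which encode scaffold proteins with BTB and TAZ domains, fell by 1.57 and 1.02. The transcription factor genes HRS1 (AT1G13300), AT3G25790 and TGA1 (AT5G65210) fell by 0.92, 0.75 and 0.49. The falls of AT3G25790 and TGA1 were larger than in mock and than in shift isoxaben roots. BT2 was not called without replicate 1 at 6 mM (adjusted p 0.0502).

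**Figure D1:**
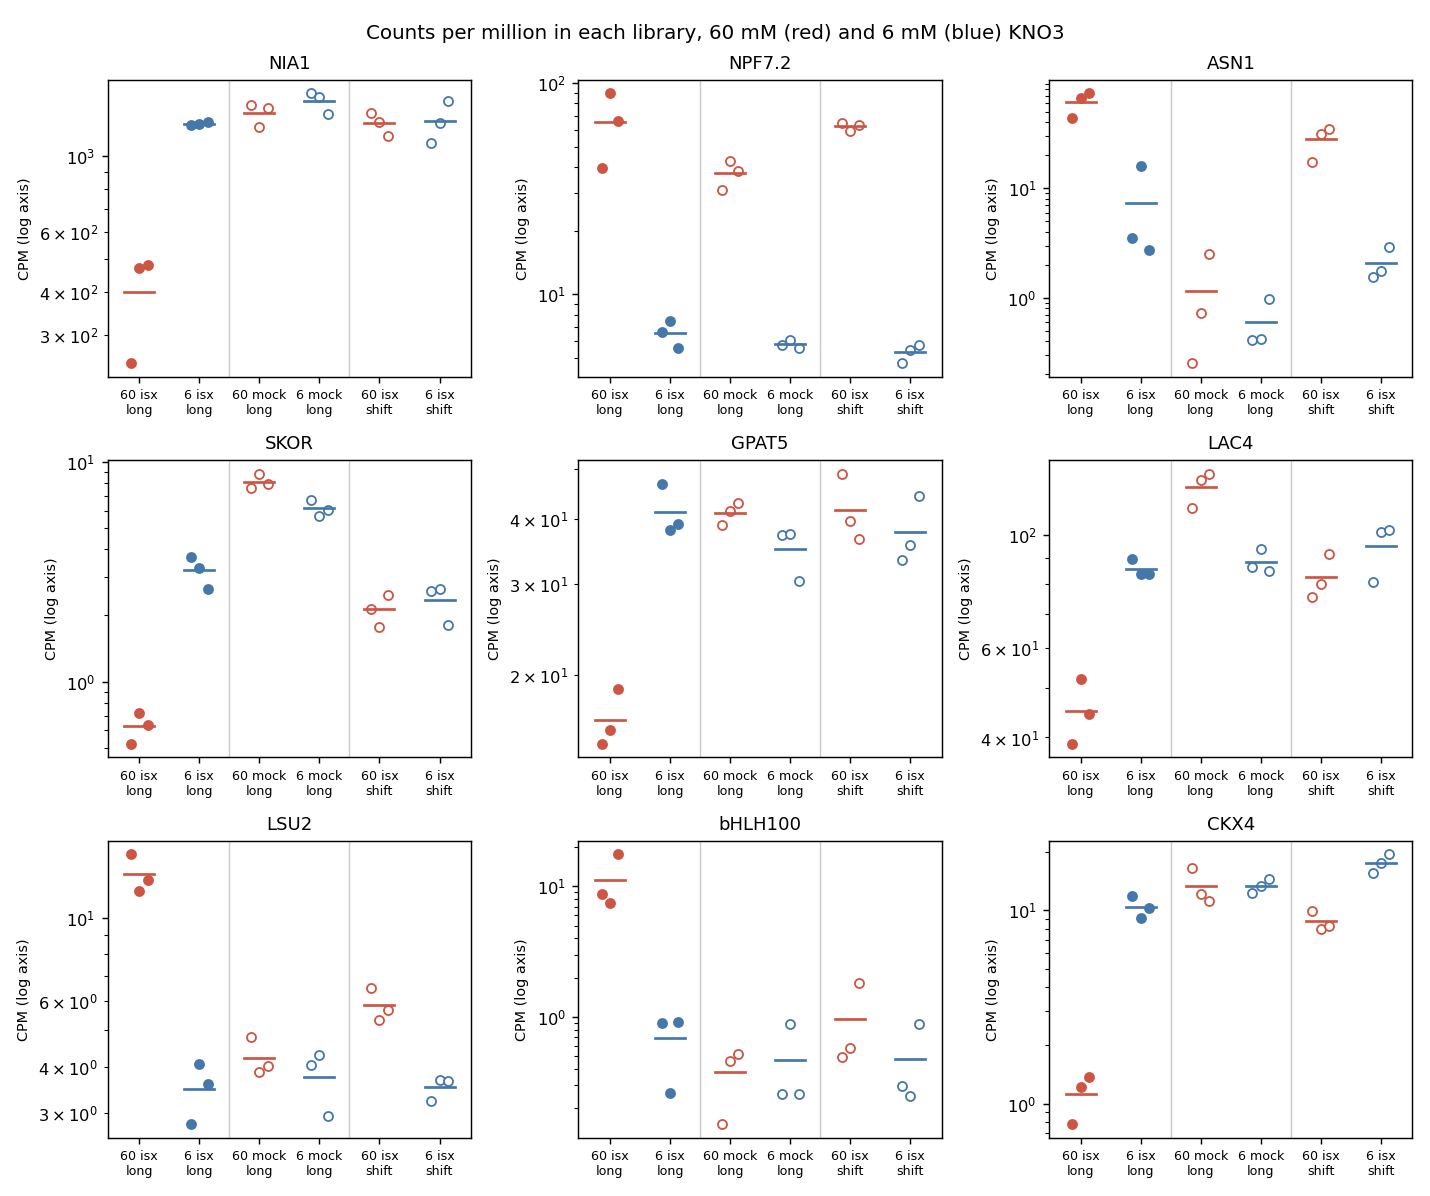
CPM on a log axis for 9 genes in every library of 6 groups: long-term isoxaben (filled points), long-term mock and shift isoxaben (open points), each with 60 mM KNO3 in red left of 6 mM KNO3 in blue; lines are group means. NIA1, GPAT5 and LAC4 had their 3 lowest values at 60 mM with long-term isoxaben, and NPF7.2 was higher in each 60 mM group than in its 6 mM group.

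Potassium channels and transporters also split, with 8 of 20 higher and 6 lower, where 12.5% and 13.1% of all tested genes were. The median of the 20 was 0.10. The 8 rises were 4 or 5 without replicate 1 or 3 at 6 mM or replicate 1 or 2 at 60 mM. The potassium genes named below are all among the 6 that fell. SKOR (AT3G02850), the channel that releases potassium into the xylem, had 0.521, 0.723 and 0.634 CPM, against 3.7, 3.28 and 2.63 CPM (log2 change -2.35 with SE 0.23, adjusted p 1.73e-08). Its ranges did not overlap, and its log2 fold change was 0.40 in mock and -0.14 in shift isoxaben roots, neither called; the differences of -2.75 and -2.21 were. CHX17 (AT4G23700), a cation exchanger gene, had 8.65, 10.6 and 6.92 CPM, against 20.4, 15.8 and 15.4 CPM (log2 change -0.98 with SE 0.24, adjusted p 0.00415), and fell in mock and shift isoxaben roots too. AKT1 (AT2G26650, KT1 in RefSeq), the inward channel of the root epidermis, fell by 0.25 and KUP1 (AT2G30070, KT1 in RefSeq) by 0.60. SKOR, AKT1 and KUP1 overlap an exon of a gene on the opposite strand; NPF7.2, NPF6.2, UPM1, ASN1, AMT1;1 and GDH1 do so too. The strand setting of the counting is not given in the sources used here, and reads of the partner may be among their counts.

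Genes of water and salt stress went both ways. Of 22 genes of the osmotic and abscisic acid response, 5 rose and 7 fell. P5CS1 (AT2G39800), which makes proline, had 77.2, 67.1 and 87.5 CPM, against 31, 35.7 and 35.5 CPM (log2 change 1.18 with SE 0.08, adjusted p 1.72e-11). It rose in mock and in shift isoxaben roots as well, by 0.94 and 0.45. In contrast, DREB2A (AT5G05410), a transcription factor of drought and heat responses, and RD29A (AT5G52310, LTI78 in RefSeq), a target gene of drought and cold signalling, fell by 0.88 and 0.61, each by more than in mock. ABI2 (AT5G57050), a phosphatase that restrains abscisic acid signalling, rose by 0.71 here and by 0.43 and 0.44 in mock and shift isoxaben roots. P5CS1 and DREB2A overlap an opposite-strand exon.

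Genes of the iron deficiency response had the highest median of the 26 lists, 1.295, with 7 of 12 higher and 2 lower. bHLH100 (AT2G41240, BHLH100 in RefSeq), a factor of the bHLH Ib group that switches on iron uptake, had 8.7, 7.4 and 17.6 CPM, against 0.9, 0.264 and 0.914 CPM (log2 change 4.01 with SE 0.54, adjusted p 1.62e-05). bHLH38 (AT3G56970), of the same group, had 14.2, 8.23 and 19.6 CPM, against 4.39, 4.12 and 4.41 CPM (log2 change 1.70 with SE 0.38, adjusted p 0.00286). The ferric reductase gene FRO2 (AT1G01580) had 44.6, 78.8 and 79.1 CPM, against 28.1, 24 and 12.9 CPM (log2 change 1.64 with SE 0.46, adjusted p 0.0138), and the iron transporter gene IRT1 (AT4G19690) had 67.6, 96.8 and 119 CPM, against 58.1, 42.6 and 24.5 CPM (log2 change 1.18 with SE 0.42, adjusted p 0.0471). The groups of FRO2 and of IRT1 did not overlap, though those of IRT1 were close. The ferritin gene FER1 (AT5G01600), which is low when iron is short, had 61.8, 131 and 53.5 CPM, against 252, 186 and 228 CPM (log2 change -1.43 with SE 0.27, adjusted p 0.000608). FIT (AT2G28160, FRU in RefSeq), the bHLH factor that partners the Ib group, fell instead: 34.5, 44.4 and 40.3 CPM, against 78.1, 61.6 and 61.6 CPM (log2 change -0.76 with SE 0.10, adjusted p 3.16e-06). MYB72 (AT1G56160), a factor of the iron response, and bHLH101 (AT5G04150, BHLH101 in RefSeq), also of the Ib group, rose by 3.31 and 1.75, both at levels under 4 CPM. IRT1 and FIT were added to the genes named after their values were seen. In mock, FIT rose by 0.42 and the other 7 of these genes were not called, and the effect was higher than in mock for bHLH100 and bHLH38 and lower for FER1 and FIT. IRT1 lost its call in 9 of 16 alternatives, among them those without replicate 2 or 3 at 6 mM (adjusted p 0.102 and 0.187) or at 60 mM (0.0878 and 0.152), and FRO2 lost it without replicate 3 at 6 mM (0.0705). Without replicate 2 of both KNO3 levels the values were 0.155 for IRT1 and 0.0778 for FRO2. FER1 was not called when only the 6 libraries were fitted (0.0721). bHLH38, bHLH101 and MYB72 overlap opposite-strand exons.

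Genes of sulfate uptake and reduction rose together: 7 of 8 were called higher and none lower, with a median of 0.97. LSU2 (AT5G24660), a low-sulfur response gene, had 14.8, 11.8 and 12.6 CPM, against 2.81, 4.07 and 3.6 CPM (log2 change 1.90 with SE 0.15, adjusted p 2.57e-10). APR3 (AT4G21990), for APS reductase, the step that commits sulfate to reduction, had 157, 166 and 167 CPM, against 77.2, 85.7 and 78.3 CPM (log2 change 1.02 with SE 0.06, adjusted p 1.17e-12). SDI1 (AT5G48850, ATSDI1 in RefSeq) rose by 1.60, LSU1 (AT3G49580) by 1.05, the root transporter gene SULTR1;1 (AT4G08620) by 0.92 and APR2 (AT1G62180) by 0.63. All 7 rises were larger than the effect in mock, and 5 of the 8 genes rose in shift isoxaben roots. APR2 and APR3 overlap opposite-strand exons.

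Among 17 phosphate starvation genes, 5 rose and 4 fell, with no common direction. The acid phosphatase gene PAP17 (AT3G17790) had 10.1, 15.7 and 13.5 CPM, against 4.39, 6.18 and 3.5 CPM (log2 change 1.47 with SE 0.18, adjusted p 7.13e-07), while the phospholipase gene NPC4 (AT3G03530) had 8.65, 10.4 and 12.9 CPM, against 26.1, 23.4 and 23 CPM (log2 change -1.18 with SE 0.18, adjusted p 5.47e-05). PHO1;H1 (AT1G68740), a relative of the phosphate exporter, fell by 0.99, and SPX1 (AT5G20150), a phosphate sensor gene, rose by 0.96. Without replicate 1 or 3 at 6 mM, 3 of the 17 rose. PAP17 overlaps an opposite-strand exon.

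Genes of the endodermal barriers fell almost without exception. Of 21 genes for the Casparian strip and suberin, 19 were called lower and 1 higher, with a median of -0.92. GPAT5 (AT3G11430), an acyltransferase of suberin synthesis, had 14.7, 15.6 and 18.8 CPM, against 46.8, 38 and 39.1 CPM (log2 change -1.34 with SE 0.14, adjusted p 3.48e-07). CYP86A1 (AT5G58860), the fatty acid hydroxylase of the same pathway, had 75.8, 96.6 and 108 CPM, against 249, 207 and 229 CPM (log2 change -1.29 with SE 0.16, adjusted p 7.06e-06). ABCG6 (AT5G13580) and ABCG2 (AT2G37360), transporters needed for suberin, fell by 1.40 and 1.36 on the log2 scale, and CYP86B1 (AT5G23190), a second hydroxylase gene, by 1.14. CASP1 (AT2G36100), a scaffold of the Casparian strip, had 88.8, 142 and 112 CPM, against 231, 213 and 205 CPM (log2 change -0.92 with SE 0.15, adjusted p 8.02e-05). For each of these genes the highest 60 mM library was below the lowest 6 mM library, and 5047 of the 5264 called genes had groups without overlap. The exception was CASP5 (AT5G15290), with 4.01, 3.06 and 4.86 CPM, against 2.22, 1.37 and 1.45 CPM (log2 change 1.24 with SE 0.26, adjusted p 0.000637).

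The other 2 settings gave a different picture. In mock roots 4 of the 21 genes rose with KNO3 and none fell, and the median was 0.28. The difference from mock was called for 19 of 21, all lower under long-term isoxaben. In shift isoxaben roots 6 of the 21 fell and none rose, with a median of -0.12. CASP1 fell there by 1.16, and its difference between long-term and shift isoxaben was not called. GPAT5, CYP86A1, CYP86B1, ABCG2 and ABCG6 were not called in shift isoxaben roots, with log2 fold changes of 0.14, 0.32, -0.08, 0.07 and -0.23, and their differences were called. The difference between long-term and shift isoxaben was called for 11 of the 21, 10 lower and 1 higher, the last being CASP5. CASP1, CASP5 and ABCG2 overlap opposite-strand exons. In bulk roots, fewer cells of a type and less RNA per cell cannot be told apart.

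**Figure D2:**
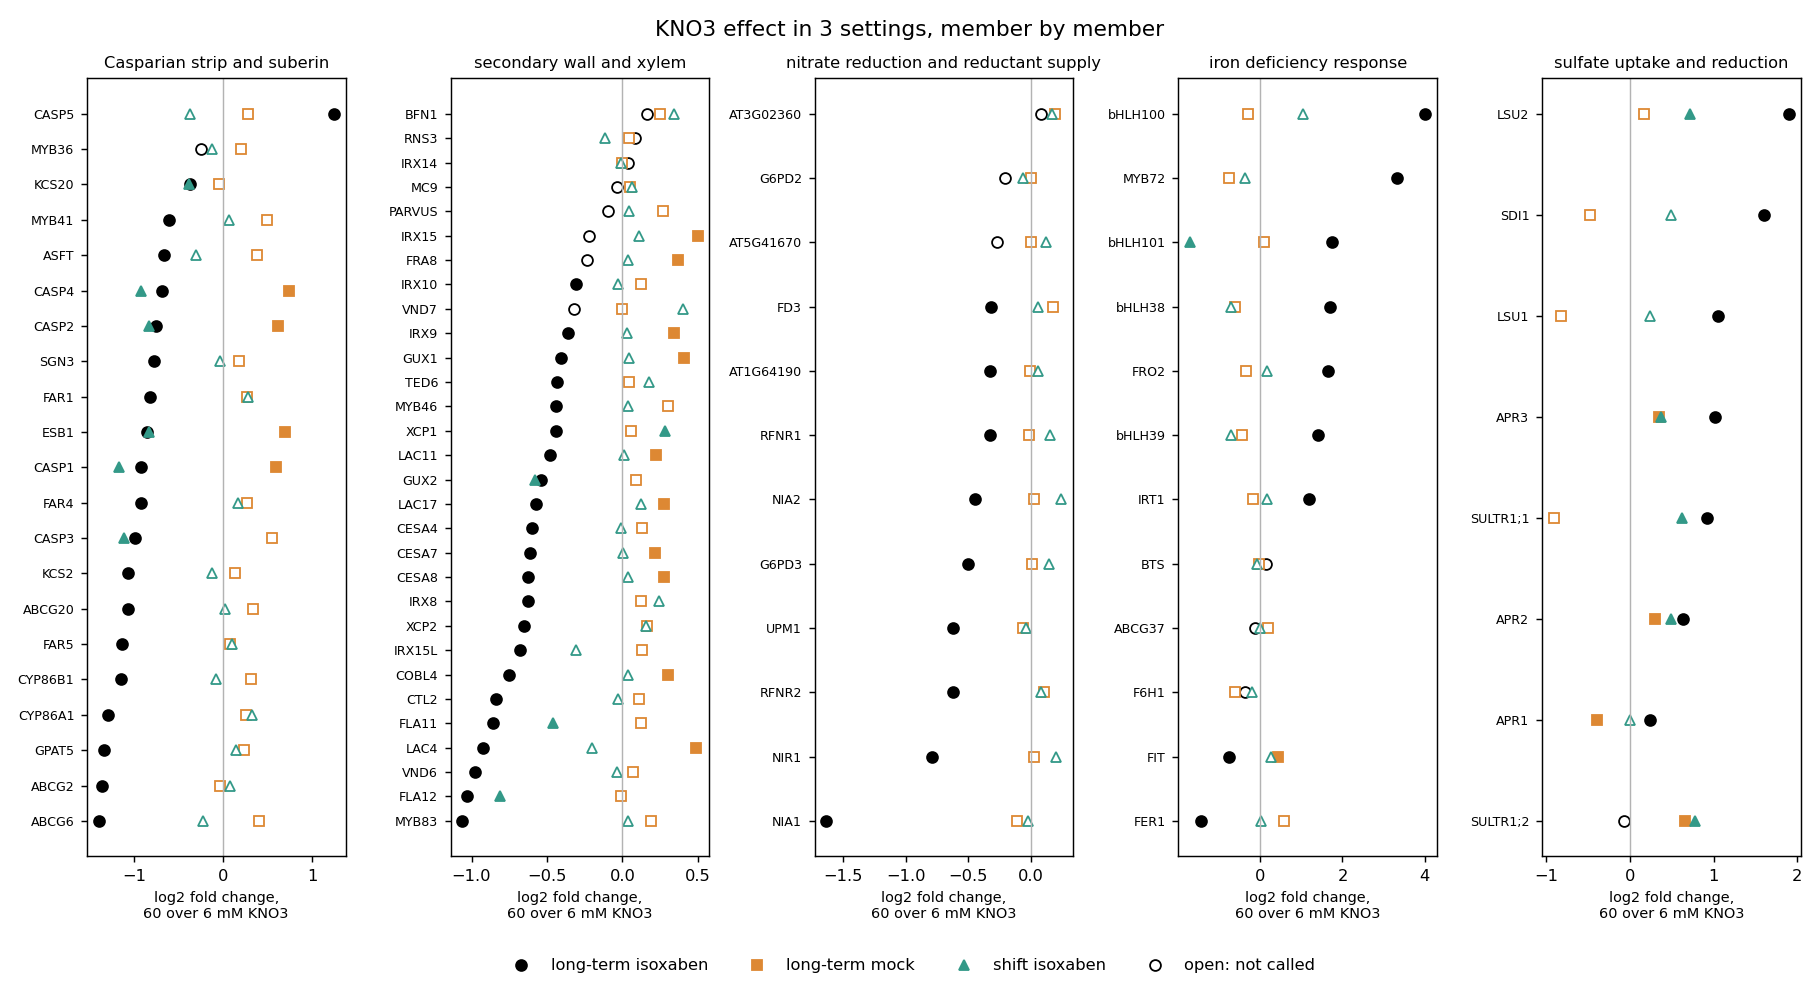
Log2 fold change of 60 over 6 mM KNO3 for the members of 5 gene lists under long-term isoxaben (circles), in long-term mock (squares) and under shift isoxaben (triangles); filled symbols passed the test. In the 3 lists on the left the circles lie left of the squares for nearly every gene, and in the sulfate list 7 of 8 circles are filled and above 0.

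Of 30 secondary wall and xylem genes, 22 fell and none rose, with a median of -0.51. The subunits of the secondary wall cellulose synthase had close values: CESA4 (AT5G44030) had 31, 32.9 and 34.9 CPM, against 49.4, 49.7 and 50.3 CPM, with a log2 fold change of -0.60. CESA7 (AT5G17420, IRX3 in RefSeq) changed by -0.61 and CESA8 (AT4G18780, IRX1 in RefSeq) by -0.62. LAC4 (AT2G38080, IRX12 in RefSeq), a laccase of lignin assembly in xylem, had 38.9, 52.2 and 44.5 CPM, against 89.7, 83.9 and 83.7 CPM (log2 change -0.93 with SE 0.10, adjusted p 6.04e-08). FLA12 (AT5G60490), an arabinogalactan protein gene of the secondary wall, had 7.14, 7.79 and 7.4 CPM, against 15, 16.5 and 14.1 CPM (log2 change -1.03 with SE 0.15, adjusted p 1.36e-05). MYB83 (AT3G08500), a master switch of the program, fell by 1.06, a call lost without replicate 2 at 6 mM (adjusted p 0.0601) or of both KNO3 levels (0.0754). In mock, 10 of the 30 rose with KNO3 and none fell. The difference from mock was called lower for 22 of the 30, and the difference from shift isoxaben for 14. CESA4, CESA7 and CESA8 overlap opposite-strand exons.

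The synthase of the primary wall is the target of isoxaben. Of 13 genes of primary wall cellulose synthesis, 1 rose and 1 fell, where 12.5% and 13.1% of all tested genes did. The median of the 13 was 0.03. CESA1 (AT4G32410) had 668, 793 and 768 CPM, against 722, 731 and 724 CPM (log2 fold change 0.03, SE 0.07). CESA3 (AT5G05170, CEV1 in RefSeq) had 543, 667 and 643 CPM, against 599, 601 and 607 CPM (log2 fold change 0.04, SE 0.07), and CESA6 (AT5G64740) changed by 0.12 (SE 0.07). The groups of CESA1 and CESA3 overlapped, and none of the 3 passed the test. CESA5 (AT5G09870) fell by 0.27, a call lost without replicate 1 at 60 mM (adjusted p 0.096), and CESA2 (AT4G39350) rose by 0.20, a call lost without replicate 1 at 6 mM (0.0772) or replicate 3 at 60 mM (0.0961). CESA1 and CESA3 also overlap opposite-strand exons.

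Phenylpropanoid genes divided: 6 of 21 rose and 3 fell. The 6 rises were 3 without replicate 2 at 6 mM or replicate 2 or 3 at 60 mM, and 10 without replicate 1 at 60 mM. The peroxidase gene PRX52 (AT5G05340) had 87.8, 153 and 107 CPM, against 28.6, 31.2 and 22.4 CPM (log2 change 2.08 with SE 0.43, adjusted p 0.00145), and its rise was 5.07 under shift isoxaben, where the difference was called. F5H1 (AT4G36220, FAH1 in RefSeq), for ferulate 5-hydroxylase, had 30.4, 62 and 55.3 CPM, against 25.5, 23.5 and 26.5 CPM (log2 change 0.97 with SE 0.21, adjusted p 0.00241), with similar log2 fold changes of 0.89 in mock and 0.86 in shift isoxaben roots. The peroxidase genes PRX72 (AT5G66390) and PRX64 (AT5G42180, PER64 in RefSeq), known from lignin of xylem and of the Casparian strip, fell by 1.07 and 0.71, and each rose in mock, by 0.78 and 0.70. PRX64 was not called without replicate 1 at 60 mM (adjusted p 0.0554), F5H1 without replicate 2 of both KNO3 levels (0.0571), nor PRX52 by DESeq2 (0.0762). PRX64 overlaps an opposite-strand exon.

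Of 23 root hair genes, 12 rose and none fell, where 12.5% and 13.1% of all tested genes did. The median of the 23 was 0.54. RHD6 (AT1G66470) and RSL4 (AT1G27740), the factors that start and drive hair growth, both rose. RHD6 had 39, 32.5 and 35.6 CPM, against 22.4, 19.2 and 21.8 CPM (log2 change 0.76 with SE 0.09, adjusted p 2.78e-07). RSL4 had 32.7, 27.6 and 26.6 CPM, against 17, 14.7 and 14.9 CPM (log2 change 0.89 with SE 0.12, adjusted p 1.78e-06). PRP1 (AT1G54970), a proline-rich wall protein of hairs, had 355, 817 and 355 CPM, against 235, 244 and 200.4 CPM (log2 change 1.17 with SE 0.33, adjusted p 0.0155). Its replicate 2 at 60 mM, the library with the most photosynthesis marker counts, stood above the others, and without it the log2 fold change was 0.64 (adjusted p 0.133). The call was also lost without replicate 3 at 6 mM (0.0652). MYB23 (AT5G40330), named with this list although it acts in non-hair cell fate, rose by 0.73. None of the 23 was called in mock, while 3 rose and 1 fell under shift isoxaben. The difference was called, as higher under long-term isoxaben, for 7 against mock and for 1 against shift isoxaben. Of the exon windows compared, 5.88% of those of MYB23 (50 bases each) recur in the genome.

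Wall loosening genes had no common direction, 6 of 20 higher and 5 lower. XTH16 (AT3G23730), a xyloglucan-modifying enzyme gene, had 8.44, 13.5 and 14.2 CPM, against 40.1, 37.6 and 40.1 CPM (log2 change -1.71 with SE 0.14, adjusted p 4.73e-09). EXPA1 (AT1G69530), an expansin gene, had 59.1, 65.9 and 57.3 CPM, against 18.8, 26.5 and 21.2 CPM (log2 change 1.45 with SE 0.12, adjusted p 3.88e-09). Of 19 genes of wall integrity sensing, 3 rose and 2 fell, near the 12.5% and 13.1% of all tested genes that did. The receptor kinase gene THE1 (AT5G54380) had a log2 fold change of 0.15 (SE 0.08) and did not pass the test. RALF23 (AT3G16570), for a peptide signal, rose by 0.65, and MCA1 (AT4G35920), for a calcium-permeable channel, fell by 0.60.

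Of 23 genes of jasmonate synthesis and response, 10 rose and 2 fell, with a median of 0.32. ORA59 (AT1G06160), a factor that joins jasmonate and ethylene signals, had 3.75, 3.84 and 3.54 CPM, against 0.635, 0.74 and 0.484 CPM (log2 change 2.57 with SE 0.29, adjusted p 1.46e-07). VSP1 (AT5G24780), a storage protein gene induced by jasmonate, had 23.7, 31.1 and 32.7 CPM, against 5.66, 10.7 and 10.8 CPM (log2 change 1.69 with SE 0.33, adjusted p 0.000892). JAZ10 (AT5G13220), a repressor gene that jasmonate induces, rose by 1.23, and VSP2 (AT5G24770) and LOX4 (AT1G72520) rose by 2.63 and 1.71 at levels under 4 CPM. In mock none of the 23 rose and 1 fell, while under shift isoxaben 6 rose and none fell. The difference from mock was called higher for 7 and lower for 1, and that from shift isoxaben higher for 2 and lower for 1. JAZ10 overlaps an opposite-strand exon. Of 11 genes of pipecolate, salicylate and indole defence, 2 rose and 3 fell, with a median of -0.15. In mock 1 of the 11 rose and 4 fell, with a median of -0.435. Under shift isoxaben 7 rose and 3 fell, with a median of 0.63. The difference from mock was called higher for 3 and lower for 1, and that from shift isoxaben lower for 5 and higher for 0. ICS1 (AT1G74710, EDS16 in RefSeq), for isochorismate synthase of salicylate synthesis, rose by 1.199. CYP79B3 (AT2G22330), of indole metabolism, had 54.2, 70.4 and 72.8 CPM, against 265, 233 and 261 CPM (log2 change -1.94 with SE 0.12, adjusted p 2.13e-10). It fell in mock and shift isoxaben roots too, by 1.48 and 1.34, and so did CYP79B2 (AT4G39950), its partner, by 0.82 here, 0.73 in mock and 0.36 under shift isoxaben.

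**Figure D3:**
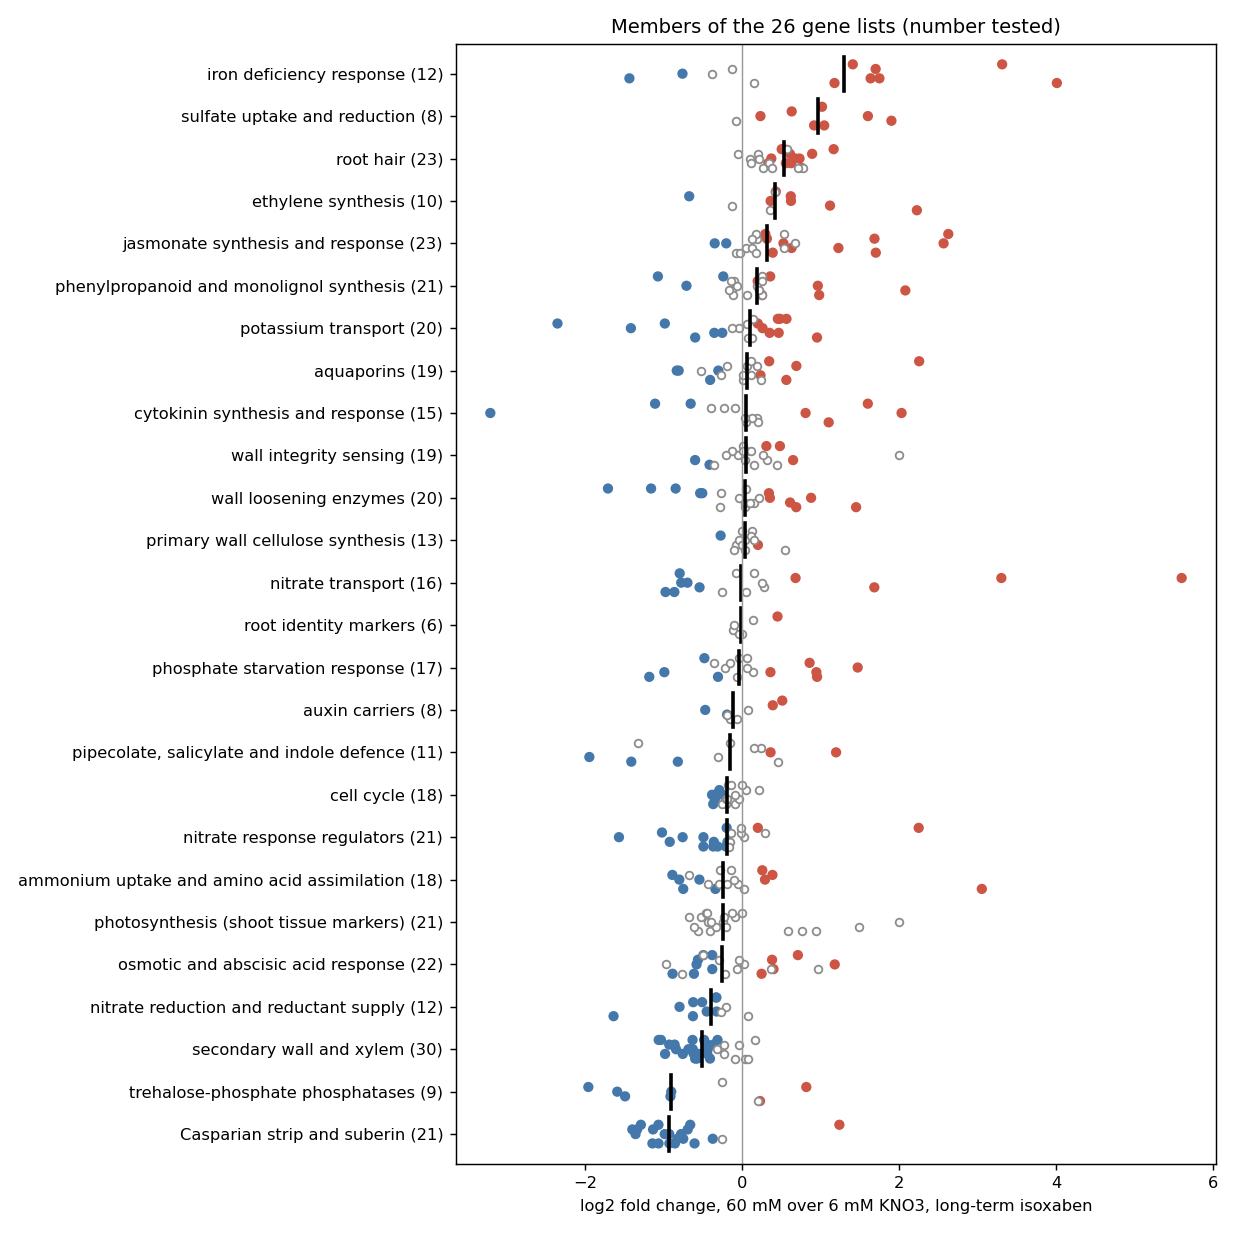
Log2 fold change of 60 over 6 mM KNO3 under long-term isoxaben for each tested member of the 26 gene lists, ordered by the median (black bar), with the number tested in brackets; red and blue points were called higher and lower, and open points were not called. The iron list lies at the top with a median of 1.295 and the Casparian strip and suberin list at the bottom with a median of -0.92.

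The largest rises among all genes with at least 5 CPM in a group began with 3 genes that were near absent at 6 mM. AT4G33720, of the family of pathogenesis-related protein 1, had 67.8, 83.8 and 95.2 CPM at 60 mM, while all 6 mM libraries were at or under the floor of 3 counts. Its 60 mM mean was at least 509.9-fold higher, with the highest floor of the 6 mM libraries (0.161 CPM) taken for 6 mM. In mock and shift isoxaben roots its group means were at most 0.07 CPM. AT5G39120 and GER2 (AT5G39190), of the germin-like family, had means at least 92.2-fold and 46.4-fold higher by the same floor, with 14.9 ± 1.63 and 7.48 ± 0.51 CPM (SD, n = 3) at 60 mM. Of the 50-base exon windows of these 2 genes, 47.3% and 90.1% recur in the genome, so their counts are uncertain. The peroxidase gene AT5G19890 had 50.5, 78.5 and 89.4 CPM, against 0.741, 1.06 and 1.02 CPM (log2 change 6.27 with SE 0.78, adjusted p 1.23e-05). NRT2.6, AT2G30766, AT4G24350 and BGLU28, a beta-glucosidase gene, followed, each with 6 mM values of at most 0.323 CPM. NRT2.6 was called higher in both other settings too, and AT5G39120, GER2 and BGLU28 in shift isoxaben roots. AT2G30766 and AT4G24350 overlap opposite-strand exons.

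The largest falls were led by AT4G01390, which encodes a TRAF-like protein, with 0.313, 0.445 and 0.37 CPM, against 7.04, 11.1 and 8.66 CPM (log2 change -4.56 with SE 0.32, adjusted p 1.41e-10). It overlaps an opposite-strand exon. AT4G01390 fell in both other settings as well, to 0 CPM in every 60 mM mock library and by 3.70 on the log2 scale in shift isoxaben roots. The difference from mock was called (log2 difference 4.76 with SE 1.47, adjusted p 0.0354). The 60 mM mock libraries held no count of the gene, so the size of its fall in mock cannot be given closely. Nor can the size of the difference, or which fall was smaller. AT5G59680, a receptor kinase gene, had 0.365, 0.612 and 0.846 CPM, against 12, 10.9 and 11.1 CPM (log2 change -4.21 with SE 0.24, adjusted p 1.02e-12). SP1L5 (AT4G23496), of the SPIRAL1 family of microtubule-associated proteins, had 0.678, 0.445 and 0.634 CPM, against 5.5, 5.44 and 5.59 CPM (log2 change -3.21 with SE 0.16, adjusted p 1.24e-13). CKX4 (AT4G29740), which degrades cytokinin, had 0.782, 1.22 and 1.37 CPM, against 11.9, 9.09 and 10.3 CPM (log2 change -3.20 with SE 0.22, adjusted p 1.12e-10). AT4G04990, AT3G18450, AT3G45160 and AT2G47560 had log2 fold changes of -4.02, -2.896, -2.73 and -2.62, and AT2G47560 overlaps an opposite-strand exon. AT5G59680, AT3G18450, AT3G45160 and AT2G47560 were called lower in mock and in shift isoxaben roots too, with smaller changes. For AT3G18450 the difference from shift isoxaben was not called. AT4G04990 and CKX4 were called lower in shift isoxaben roots but not in mock.

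Among called genes that changed at least 2-fold, those with the highest mean CPM were AT5G26260, GSTF2 (AT4G02520) and CYP705A5 (AT5G47990) for rises. AT5G26260, which encodes another TRAF-like protein, had 2344, 2331 and 2571 CPM, against 597, 693 and 686 CPM (log2 change 1.87 with SE 0.11, adjusted p 1.13e-11). The glutathione transferase gene GSTF2 had 931, 1563 and 1325 CPM, against 570.5, 508 and 494 CPM (log2 change 1.28 with SE 0.24, adjusted p 0.000682), and CYP705A5, of a cytochrome P450 family, rose by 1.14. GSTF2 overlaps an opposite-strand exon. NIA1, AT4G11320, a papain-type protease gene, and AT4G38080, a hydroxyproline-rich protein gene, were the corresponding falls. AT4G11320 had 179, 267 and 255 CPM, against 744, 704 and 817 CPM, and fell by 1.91 in mock and 1.93 in shift isoxaben roots, close to the 1.69 here.

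The KNO3 effect under long-term isoxaben was then set against that in the other 2 settings, which share no library with it. In long-term mock, 1391 genes were called for KNO3 (6.77%), 581 higher and 810 lower. When only the libraries compared were fitted, 1942 genes were called in mock, beside 4170 under long-term isoxaben. The counts shared between settings are from the fit of all 24 libraries. Genes called in both settings numbered 810, which is 15.4% of those called under long-term isoxaben and 58.2% of those called in mock. Of these, 637 moved the same way and 173 the opposite way. The effect itself differed between the 2 settings for 2426 genes (11.8%), 1119 with a higher and 1307 with a lower value under isoxaben, and for 82.0% of them it was larger in size under isoxaben. Leaving out 1 library lowered the count of mock calls to 894 (6 mM replicate 3), 921 (60 mM replicate 1) and 887 (60 mM replicate 3) in these 3 cases.

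In shift isoxaben roots, 2884 genes were called (14.0%), 1424 higher and 1460 lower, or 2519 when only the libraries compared were fitted. Those called in both isoxaben settings numbered 1671, or 31.7% of the long-term calls and 57.9% of the shift calls, 1556 in the same direction and 115 in the opposite. The effect differed between long-term and shift isoxaben for 1694 genes (8.24%), 770 higher and 924 lower; with scaling by library size alone the split was 610 and 1185. In all, 414 genes were called in the same direction in all 3 settings, while for 877 of the 5264 the effect differed from both other settings.

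**Figure D4:**
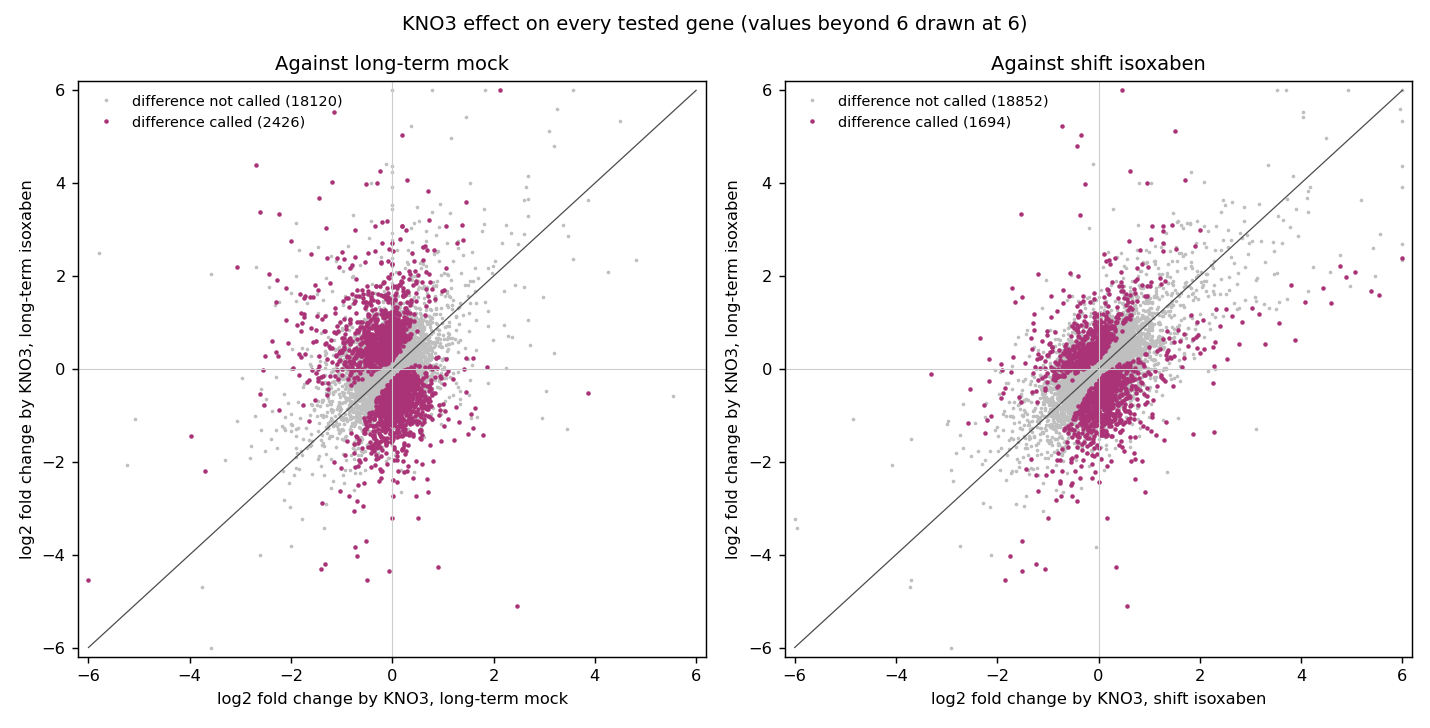
Log2 fold change of 60 over 6 mM KNO3 for every tested gene under long-term isoxaben (vertical) against that in long-term mock (left) and under shift isoxaben (right), with values beyond 6 drawn at 6 and the line of equal effects; coloured points are genes whose difference between settings was called, 2426 on the left and 1694 on the right. The cloud on the left is taller than it is wide, with medians of the absolute log2 fold change of 0.165 under long-term isoxaben and 0.112 in mock.

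The genes whose effect differed from mock with the smallest adjusted p were AT2G34930, BGLU21 (AT1G66270) and AT2G43535 on the higher side and SP1L5, scpl31 (AT1G11080) and AT1G72230 on the lower side. AT2G34930, a leucine-rich repeat protein gene, averaged 50.4 ± 5.77 CPM in 60 mM and 7.27 ± 0.348 CPM in 6 mM isoxaben roots, against 7.5 ± 0.945 CPM in 60 mM and 6.78 ± 0.382 CPM in 6 mM mock roots (SD, n = 3 each; log2 difference 2.65, SE 0.18, adjusted p 3.68e-10). SP1L5 averaged 0.586 ± 0.124 CPM and 5.51 ± 0.0758 CPM in the 60 and 6 mM isoxaben groups, against 15.5 ± 1.41 CPM and 10.8 ± 0.48 CPM in the 60 and 6 mM mock groups (log2 difference -3.73, SE 0.19, adjusted p 3.99e-13). It fell with KNO3 under isoxaben and rose in mock, by 0.51. AT2G43535, which encodes a knottin-like peptide, rose by 1.52 under isoxaben and fell by 0.58 in mock. The serine carboxypeptidase-like gene scpl31 fell by 2.05 under long-term isoxaben, while its log2 fold changes of -0.10 in mock and -0.12 in shift isoxaben roots were not called. The counts of AT2G34930 are uncertain, since it overlaps an opposite-strand exon.

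Between long-term and shift isoxaben, AT1G28660, a lipase-family gene, had the smallest adjusted p on the higher side. It averaged 23.1 ± 1.11 CPM and 11.6 ± 0.454 CPM in the long-term groups at 60 and 6 mM, against 2.95 ± 0.62 CPM and 7.2 ± 0.983 CPM in the shift groups at 60 and 6 mM (log2 difference 2.28, SE 0.18, adjusted p 3.1e-09). AT2G47200, annotated as an uncharacterized protein, fell by 1.36 under long-term and rose by 0.42 under shift isoxaben. AT2G47200 overlaps an opposite-strand exon.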

How the data were processed

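Raw counts per gene for all 24 libraries were deposited by the authors in 1 table. The submitters' processing notes name the build TAIR10, STAR 2.7.9a and DESeq2 1.32.0, without their roles; the strand setting of the counting is not given in the sources used here. The table lists 32833 genes, 5591 of them without a count. Genes passing edgeR's expression filter over 8 groups were kept, 20546 with 99.96% of counts. Counts were scaled by TMM (factors 0.939 to 1.03), and all libraries were fitted with 8 group means (16 residual degrees of freedom, prior count 0.125) by edgeR 4.0.16's robust quasi-likelihood test in R 4.3.3, with Benjamini-Hochberg adjustment. The scripts were tested on simulated data. Common biological variation was 7.66%. The floor is 3 counts; it covers counting error only. Gene symbols are those in use, with RefSeq's where it differs; overlaps with genes on the opposite strand and repeats of 50-base exon windows come from RefSeq's TAIR10.1, used for no coordinates.

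Named genes are the 8 largest rises and 8 largest falls with at least 5 CPM in a group and ranges that do not overlap, the 3 most abundant called genes in each direction with an absolute log2 of at least 1, the 3 with the smallest adjusted p in each direction for both tests of a difference, and up to 6 members of a list, by size of change and then by defining role. Low-count members were passed over in some lists, and RD29A, IRT1 and FIT were chosen after their values were seen. The members and lists were chosen with earlier results of these data known. Alternatives covered scaling, filters, thresholds, DESeq2 1.42.0, limma 3.58.1 voom, libraries fitted, a replicate block and leaving out each library.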

Additional observations from a re-analysis of the deposited data

Results flagged for a closer look

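The KNO3 effect under long-term isoxaben differed from that in long-term mock for 2426 genes by the test of the difference itself. The log2 differences of the 3 genes with the smallest adjusted p in each direction were 2.65 for AT2G34930, 1.18 for BGLU21 and 2.104 for AT2G43535 on the higher side, and -3.73 for SP1L5, -1.95 for scpl31 and -1.85 for AT1G72230 on the lower side.

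The effect differed between long-term and shift isoxaben for 1694 genes. The log2 differences were 2.28 for AT1G28660, 1.318 for AT5G24070 and 0.88 for BGLU21 on the higher side, and -3.38 for SP1L5, -1.92 for scpl31 and -1.78 for AT2G47200 on the lower side. AT5G24070 fell with KNO3 in both settings, by 0.62 under long-term and by 1.93 under shift isoxaben. Its positive difference is a smaller fall. BGLU21, SP1L5 and scpl31 stand in both sets. Of the exon windows of AT1G28660 and BGLU21, 8.38% and 5.33% recur in the genome.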

How the results depend on the processing

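Counting genes changed at least 2-fold, the calls were 1083 for KNO3 under long-term isoxaben, 835 for its difference from mock, 478 for its difference from shift isoxaben, 270 in mock and 597 in shift isoxaben roots; at an adjusted p under 0.01 they were 3448, 1330, 817, 695 and 1659. limma voom called 2270 genes in mock. Leaving out each library in turn gave 4219 to 5061 calls under long-term isoxaben, 1901 to 2632 and 1257 to 1863 for the differences from mock and from shift isoxaben, 887 to 1167 in mock and 2095 to 2482 in shift isoxaben roots. The other alternatives stayed within 1.5 times of each count. A fit with a replicate block over all 24 libraries called 5276, 2431, 1727, 1399 and 2882 genes, and 4359, 2353, 1257, 1800 and 2245 when limited to the libraries compared. Same-numbered libraries of the main groups correlated in their deviations by 0.151, 0.274 and 0.0892, so the numbers were not taken as pairs, although each 60 mM isoxaben library correlated best with its own number at 6 mM. Scaling by library size alone gave 2183 higher and 3006 lower calls. Without replicate 2 of both main groups, an alternative chosen after seeing the data, 4201 genes were called, 1792 higher and 2409 lower. CESA1 and CESA3 (CEV1), not called, had log2 fold changes of -0.0274 to 0.105 and -0.0349 to 0.12 when 1 library was left out, below 0 without 60 mM replicate 2 or 3, and of -0.0207 and -0.0354 without replicate 2 of both groups; the cause was not tested. Of the genes named, those that lost their call when only the 6 libraries were fitted were NRT2.1 (adjusted p 0.128), AMT1;3 (0.0801), IRT1 (0.112), FER1 (0.0721), CESA2 (0.0523), F5H1 (0.0648) and PRP1 (0.117). Under the block limited to those 6 they were ASN1 (0.0569), IRT1 (0.225), FRO2 (0.117), FER1 (0.123), CESA2 (0.0586) and MYB83 (0.0548), and under the block over all libraries IRT1 (0.0714). Without replicate 2 of both groups they were NRT2.1 (0.0555), RFNR2 (0.0845), IRT1 (0.155), FRO2 (0.0778), MYB83 (0.0754), F5H1 (0.0571), PRP1 (0.171) and PLT2 (0.0774), and without a filter on low counts IRT1 (0.0638).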

Other observations

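Trehalose-phosphate phosphatases, which remove the sugar signal trehalose-6-phosphate, fell in part: 5 of 9 tested genes were lower at 60 than at 6 mM KNO3 under long-term isoxaben and 2 higher, with a median log2 fold change of -0.90. TPPE (AT2G22190) had 1.82, 1.5 and 1.59 CPM at 60 mM, against 5.88, 6.92 and 6.35 CPM at 6 mM (log2 change -1.96 with SE 0.21, adjusted p 4.46e-08). TPPI (AT5G10100) had 4.53, 5.9 and 5.92 CPM, against 16.2, 16.1 and 16.8 CPM (log2 change -1.59 with SE 0.12, adjusted p 2.57e-10). TPPB (AT1G78090) and TPPD (AT1G35910) fell by 0.91 and 0.90. For these 4 genes the fall was larger than the effect in mock and than that in shift isoxaben roots. TPPH (AT4G39770) fell by 1.49 and did so in both other settings as well, by 1.247 in mock and 1.59 under shift isoxaben. TPPJ (AT5G65140) rose by 0.82.

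Cytokinin response regulators moved both ways beside the fall of CKX4. ARR15 (AT1G74890) had 3.49, 2.45 and 2.38 CPM, against 0.635, 0.528 and 0.86 CPM (log2 change 2.03 with SE 0.26, adjusted p 1.2e-06), and ARR3 (AT1G59940) rose by 1.11 and ARR5 (AT3G48100, RR5 in RefSeq) by 0.81, while ARR7 (AT1G19050) fell by 1.11. Of 10 ethylene synthesis genes, 6 rose and 1 fell. ACS11 (AT4G08040), for the ACC synthase step, had 23.9, 35.2 and 24.9 CPM, against 5.66, 6.29 and 5.97 CPM (log2 change 2.23 with SE 0.14, adjusted p 8.6e-12), and rose by 2.21 under shift isoxaben but not in mock (-0.79, not called). ACS5 (AT5G65800) rose by 1.12, more than in either other setting. Of 18 cell cycle genes, 6 fell by 0.25 to 0.38 and none rose; 3 fell without replicate 2 at 6 mM or at 60 mM. Of 19 aquaporin genes, 5 rose and 4 fell. The plasma membrane aquaporin gene PIP2;5 (AT3G54820) had 6.67, 11.9 and 9.51 CPM, against 1.59, 2.22 and 2.04 CPM (log2 change 2.26 with SE 0.23, adjusted p 1.91e-08), and PIP2;3 (AT2G37180, RD28 in RefSeq) fell by 0.81 and PIP2;8 (AT2G16850) by 0.83. Of the exon windows of PIP2;3, 17.3% recur in the genome.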
